A study of Mus musculus with 9 samples.

Results

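The comparison described here set the epidermis of Esrp1 KO/Esrp2 KO embryos (DKO, 2 libraries) against that of Esrp1 WT/Esrp2 WT embryos (WT, 2 libraries), and 12465 of the 38203 genes in the expression table entered it because their average FPKM was at least 1 in either genotype. FPKM is the number of fragments per kilobase of exon and per unit of mapped fragments. Of these genes, 59 belonged to the keratin (25), Sprr (13) and Lce (21) families, and 12406 did not. The account below is mainly about the latter and about genes that were lower in DKO.

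Esrp1 and Esrp2 are RNA-binding proteins that set epithelial patterns of alternative splicing. The epidermis is a stratified epithelium in which basal keratinocytes divide, leave the basal layer and move through a spinous and a granular layer before they die as cornified cells. On the way they build desmosomes, fill lamellar granules with lipids that are processed into the ceramides of the water barrier, and signal to the T cells and Langerhans cells that live between them.

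Each library came from the skin of 1 mouse embryo at E18.5, on a mixed C57BL6/129Sv background backcrossed into C57BL6, and epidermis from the basal to the cornified layer was taken. The Esrp1 allele lacks internal exons in the germline and the Esrp2 allele carries a reporter cassette in place of the gene, so both are absent from the whole embryo and not only from the epidermis. DKO embryos came from matings in which both parents lacked Esrp2, so WT embryos came from other litters, and litter and genotype cannot be told apart. The WT embryos were labelled as wild type at both genes, although the text on RNA extraction writes their Esrp2 genotype as -/-. The other 5 libraries, 3 from Esrp1 KO/Esrp2 WT (KO) and 2 from Esrp1 KO/Esrp2 Het (KH) embryos, were used for the estimate of spread and are quoted as a range for some of the genes described.

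Before any result, the targeted genes were read in every library. Esrp2 was at 0.0843 and 0.0463 FPKM in DKO and at 118 and 136 in WT, and from 38.6 to 131 in the KO and KH libraries (log2 fold change DKO minus WT -6.91, standard error 0.37, limma with Benjamini-Hochberg adjusted p = 4.9e-05). The WT libraries were thus not depleted of Esrp2 RNA. Esrp1 was at 42.2 and 38.6 FPKM in DKO and 119 and 142 in WT, without overlap, and at 18.1 to 55.1 in the KO and KH libraries. Its value covers the whole gene, including the exons that remain in the deleted allele. The adjusted p of Esrp1 was 0.125 when all 9 libraries were fitted and 0.00764 when only the DKO and WT libraries were fitted.

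The FPKM of a library summed to 771857 and 1112137 in DKO and to 867380 and 895103 in WT, and 11851 to 12070 genes in these 4 libraries reached 1 FPKM. Read depth cannot be read from the deposited values, which are FPKM without counts. The paper reports mapped reads by genetic group. Xist was at 110.9 FPKM in WT replicate 2 and below 0.2 in WT replicate 1 and both DKO libraries, so the sexes were not balanced. The Y-linked gene Ddx3y was at 11.8 and 11.5 FPKM in the KH libraries and at most 0.011 in the KO libraries. In these genotypes sex and genotype cannot be told apart. Among the 411 sex-chromosome genes tested, 2 were called higher and 0 lower by limma (adjusted p with Benjamini-Hochberg). Keratinocyte markers were abundant: the 7 basal markers summed to 6419 and 7406 FPKM in DKO and to 5278 and 5349 in WT. Markers of endothelium and adipocytes were near 0, with 7 of 8 and 7 of 7 under 1 FPKM in all 4 libraries. Of 10 dermal fibroblast markers 7 were under 1 FPKM in all 4, among them Col1a1 and Pdgfra, but Dcn was at 42.3 and 72.8 FPKM in DKO and 72.6 and 83.99 in WT and Vim at 58.04 and 58.1 against 40.6 and 27.9, and the list summed to 102.4 and 133.5 FPKM in DKO and 115.5 and 113.5 in WT.

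Genes were called at an adjusted p under 0.05 and a difference of more than 2-fold between the average FPKM of the 2 groups. By this rule 55 genes were called lower in DKO (0.441% of those tested) and 74 higher (0.594%), and in none of them did a DKO library overlap the WT libraries. With 2 libraries a group such non-overlap was common. Both DKO libraries lay below both WT libraries in 29.6% of all genes tested and above both in 28.1%. Outside the keratin, Sprr and Lce families the 2 directions were about even, with 55 genes lower and 56 higher, whereas the families added 18 higher genes and no lower gene. The lower genes had a median WT average of 17.7 FPKM, and 37 of the 55 were above 10 FPKM in WT. The higher genes had a median WT average of 0.835 FPKM, and 10 of the 74 were above 10 FPKM in WT. The filter and the fold rule set part of this contrast, since a gene near 0 in WT could be called higher but not lower. The plot of all genes tested shows both sets. Of the 55 lower genes 20 overlap another locus, and of the 74 higher genes 14, so that their reads may be shared. Among the genes described below these are Slc6a19, Skint4, Skint5, Cmtm8, Gadl1, Clmp, Tmprss11e, Kdm1b, Rb1, Fgf1, Gpx2, Il1b, Slc16a5 and Spink7.

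The counts depended on the libraries that set the spread. When only the DKO and WT libraries were fitted, 405 genes were called lower (3.25%) and 219 higher (1.76%), and all of the 55 and 74 were among them. With FPKM rescaled to the same sum in every library the split was 121 lower to 80 higher, against 55 to 74 as deposited, and the median log2 fold change of all genes went from 0.01 to -0.05. The lower count was 11 and 8 without DKO replicate 1 and 2, 16 and 13 without WT replicate 1 and 2, and 23 without KO replicate 2, and it was 105, 90 and 98 without KH replicate 1, KH replicate 2 and KO replicate 3. The higher count was 39 and 30 without WT replicate 1 and 2. A second, descriptive measure is used beside the calls: a gene was separated when its DKO and WT libraries did not overlap and the group averages were more than 2-fold apart. Of all genes tested, 751 were separated lower (6.02%) and 598 separated higher (4.8%), and 746 and 572 of them lay outside the 3 families.

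**Figure D1:**
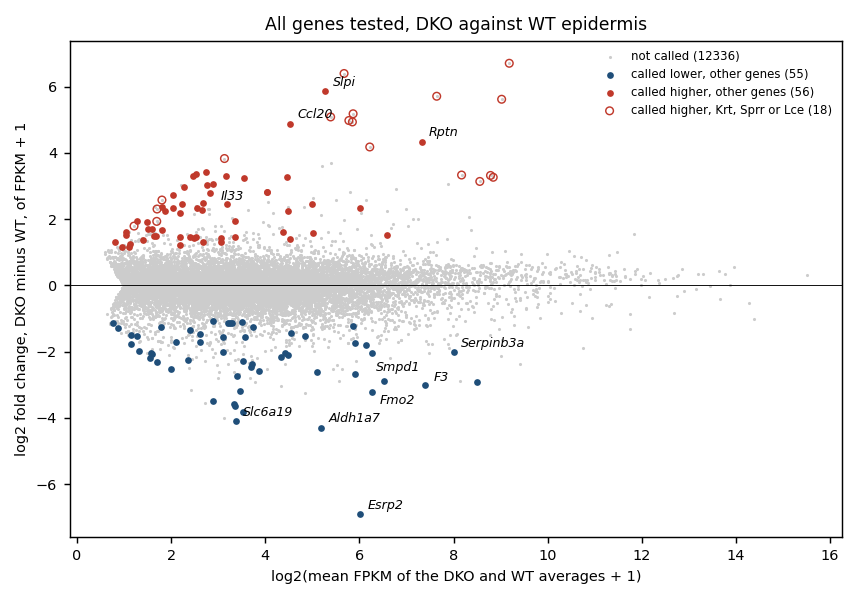
The log2 fold change of FPKM + 1, DKO minus WT, of the 12465 genes tested, against their mean level on the log2(FPKM + 1) scale. Blue points are the 55 genes called lower, filled red points the 56 genes called higher outside the keratin, Sprr and Lce families, and open red circles the 18 called genes of those families, all of them higher.

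The 20 largest falls among named genes outside the families ranged in log2 fold change from -4.30 to -2.17. An aldehyde dehydrogenase, an amino acid transporter, a mitochondrial protein and a superoxide dismutase led them. Aldh1a7, a cytosolic aldehyde dehydrogenase, was at 2.11 and 2.65 FPKM in DKO and at 47.7 and 88.8 in WT, a 28.7-fold lower average (log2 fold change -4.30, standard error 0.41, adjusted p = 0.00126 by limma). Both DKO values lay below all 7 other libraries, since the KO and KH libraries held 27.6 to 66.98 FPKM. Slc6a19, which carries neutral amino acids into cells together with sodium, was at 0.229 and 0.0473 FPKM in DKO and 19.97 and 17.1 in WT (log2 fold change -4.10, standard error 0.40, adjusted p = 0.00139). The antisense gene on the opposite strand of this locus, 5430425J12Rik, was also called lower. The 2 loci overlap, and since the sources do not say whether strand was used in counting, their reads cannot be told apart.

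Mgarp, a mitochondrial protein with a part in mitochondrial transport, was at 0.436 and 0.511 FPKM in DKO and 14.97 and 26.1 in WT (adjusted p = 0.00236). Sod3, the extracellular superoxide dismutase, was at 0.311 and 0.0983 FPKM against 12.5 and 12.8 (adjusted p = 0.0163). Fmo2, a flavin-containing monooxygenase, was at 20.2 and 9.48 FPKM against 133 and 142 (adjusted p = 0.04699). In all 3 the groups did not overlap, as in every called gene, and the KO and KH libraries were above both DKO libraries. Bnip3, a receptor that marks mitochondria for autophagy, was at 20.8 and 9.92 FPKM against 74.3 and 130.5 (log2 fold change -2.69, adjusted p = 0.0319), and Ak4, a mitochondrial adenylate kinase chosen after its values were seen, at 4.86 and 4.76 FPKM against 12.6 and 20.9 (log2 fold change -1.57, adjusted p = 0.0261).

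The most abundant of the 20 was F3, or tissue factor, the cell-surface receptor that starts blood coagulation. It was at 44.3 and 29.6 FPKM in DKO and 309 and 285 in WT, 8.03-fold lower on average (log2 fold change -3.00, standard error 0.40, adjusted p = 0.0103 by limma). The KO and KH libraries lay in between at 65.4 to 148, and no library of another genotype overlapped WT. Smpd1, the acid sphingomyelinase, followed with 27.6 and 15.04 FPKM against 169 and 149.7 (log2 fold change -2.90, standard error 0.50, adjusted p = 0.0349). Hpse, the heparanase that cuts heparan sulfate chains, was at 3.69 and 2.22 FPKM against 16.9 and 19.1 (adjusted p = 0.0384). Fgf22, a fibroblast growth factor made by keratinocytes, was at 2.56 and 1.06 FPKM against 19.1 and 15.4 (log2 fold change -2.74, adjusted p = 0.0349). Each of these 4 genes was lower in both DKO libraries than in any of the 7 others.

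Smaller values were found for Cmtm8 (4.24 and 2.28 FPKM in DKO, 26.6 and 21.2 in WT), a MARVEL domain membrane protein. Ccr4, a receptor for the chemokines Ccl17 and Ccl22, was at 0.614 and 0.954 FPKM against 6.59 and 8.35. Cdr2 was at 6.14 and 6.53 against 29.6 and 34.8 FPKM and BC048671 at 0.0554 and 0 against 4.78 and 2.79. These 4 genes were called lower, at adjusted p between 0.01804 and 0.0402 by limma, and in none did a DKO library reach the level of any other library.

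A different pattern was found in 3 of the 20, in which the KO and KH libraries were as low as, or nearly as low as, DKO. Gadl1, an acidic amino acid decarboxylase, was at 10.9 and 6.69 FPKM in DKO, 56.6 and 59.1 in WT and 4.65 to 8.97 in the KO and KH libraries (log2 fold change DKO minus WT -2.62, adjusted p = 0.00087). Bsnd, or barttin, the accessory subunit of ClC-K chloride channels, was at 0.151 and 0.0345 FPKM in DKO, 4.25 and 4.57 in WT and 0.149 to 0.569 in the others (adjusted p = 0.001804). Ear5, an eosinophil-associated ribonuclease, was at 4.24 and 1.95, 21.4 and 19.9 and 3.21 to 8.43 FPKM (adjusted p = 0.0273). These 3 genes separated WT from every library with the Esrp1 deletion. So did F3 and Skint5, but in them both DKO libraries also lay below every other library. Aldh1a7, Slc6a19, Mgarp and Sod3, among others of the 20, separated DKO from every other library.

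**Figure D2:**
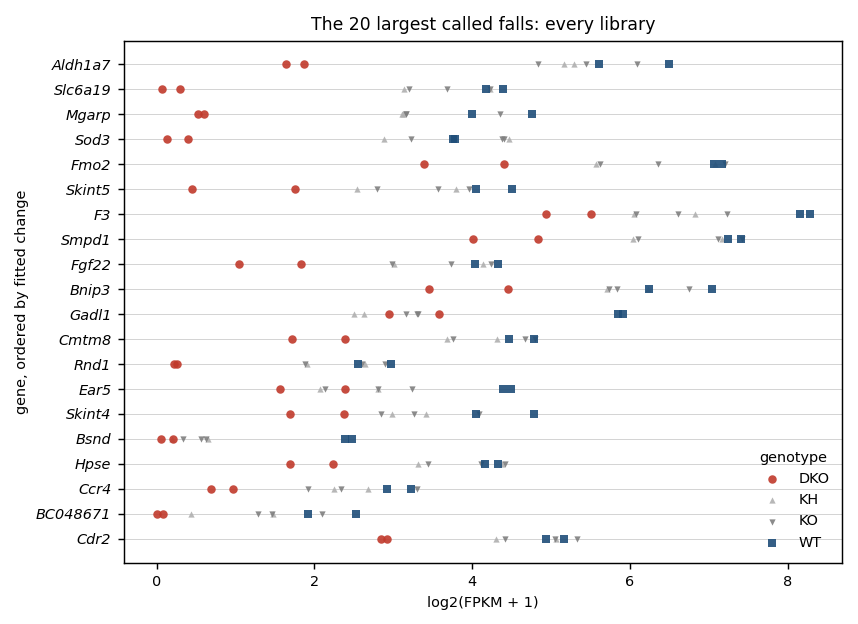
The 20 largest called falls outside the keratin, Sprr and Lce families and predicted genes, as log2(FPKM + 1) in each library. Red circles are DKO, blue squares WT, and grey triangles the KH and KO libraries; the 2 DKO circles lie to the left of both WT squares in every gene, and the grey points of Gadl1 and Bsnd lie with DKO.

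Promoters of called genes were read for the letters TGANTCA, which include the site of the AP-1 factors, since Fosl1, an AP-1 subunit, was called higher at 2.597 and 2.99 FPKM in DKO against 0.376 and 0.566 in WT; the letters were chosen after the values were seen. The windows run from 250 bases before to 50 after the start site (RefSeq, GRCm38.p6). The letters read the same on both strands. They were present in 2565 of 32851 windows (7.81%) and in 6.31% of the 9259 tested genes that have one. Of the 41 genes called lower with a window 5 held the letters (12.2%), and of the 56 called higher 11 (19.6%), of which 6 were Sprr genes, a family whose promoters share sequence. Outside the keratin, Sprr and Lce families 5 of the 42 genes called higher held the letters (11.9%). A match is a description of the letters and not a binding site. A pair of genes from each direction is printed here because they carry the most abundant of the 20 largest falls, a chemokine receptor that fell and fused S100 genes that rose, with the matching letters in capitals. All 4 are written 5′ to 3′ on the gene's own strand, in GRCm38.p6. In F3 the letters start 146 and 135 bases before the start site, in Ccr4 143, and in both Rptn and Crnn 96.
F3 (chr3:121723287-121723586, plus strand): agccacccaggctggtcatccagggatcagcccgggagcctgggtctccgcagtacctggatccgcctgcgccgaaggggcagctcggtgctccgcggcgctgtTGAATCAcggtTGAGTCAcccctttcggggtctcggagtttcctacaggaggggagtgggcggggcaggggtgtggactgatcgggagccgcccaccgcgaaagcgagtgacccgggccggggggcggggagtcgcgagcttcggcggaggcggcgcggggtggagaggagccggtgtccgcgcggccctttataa
Ccr4 (chr9:114496495-114496794, minus strand): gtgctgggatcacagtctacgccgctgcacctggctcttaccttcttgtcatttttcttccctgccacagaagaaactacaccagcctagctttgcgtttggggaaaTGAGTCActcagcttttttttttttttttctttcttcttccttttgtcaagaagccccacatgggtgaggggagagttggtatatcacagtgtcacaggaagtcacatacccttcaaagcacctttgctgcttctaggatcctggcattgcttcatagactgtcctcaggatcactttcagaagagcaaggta
Rptn (chr3:93393449-93393748, plus strand): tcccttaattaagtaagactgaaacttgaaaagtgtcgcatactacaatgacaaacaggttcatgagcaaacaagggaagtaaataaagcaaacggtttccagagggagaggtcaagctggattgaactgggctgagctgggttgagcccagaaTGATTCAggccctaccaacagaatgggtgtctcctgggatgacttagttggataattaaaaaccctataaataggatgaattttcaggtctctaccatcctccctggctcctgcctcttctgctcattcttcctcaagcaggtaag
Crnn (chr3:93144539-93144838, plus strand): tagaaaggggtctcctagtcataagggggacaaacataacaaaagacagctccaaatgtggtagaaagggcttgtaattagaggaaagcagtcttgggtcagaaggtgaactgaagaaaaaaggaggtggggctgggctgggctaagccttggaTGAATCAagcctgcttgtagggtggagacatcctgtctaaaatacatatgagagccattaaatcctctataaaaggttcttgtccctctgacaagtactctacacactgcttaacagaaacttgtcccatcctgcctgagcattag

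Of the other 34 called lower genes that were neither Esrp2 nor among these 20, 8 belonged to functional lists and are described with them, and 6 had predicted names. At least 5 of the 6 share position or sequence with another gene and are uncertain. 5430425J12Rik lies opposite Slc6a19, 1810019D21Rik overlaps the Esrp2 locus, Gm13536 is annotated as antisense, Gm9696 as an unprocessed pseudogene, and Gm9000, at 78.7 and 86.7 FPKM against 578 and 689, as a processed pseudogene. The remaining 20, with log2 fold changes from -2.11 to -1.07, were chosen after their values were seen and came from many functions. They included Rb1, the retinoblastoma cell cycle repressor (5.24 and 5.03 FPKM in DKO, 11.9 and 13.2 in WT), Map2k6, a kinase that activates p38 (3.69 and 3.86 against 8.703 and 9.39), Kdm1b, a histone demethylase (6.21 and 6.16 against 13.9 and 15.1), and Polr3g, a subunit of RNA polymerase III (28.2 and 24.99 against 76.3 and 106). In these 4 the DKO values of a gene were close to each other and the groups were well apart. The others were Cryl1, Pip5kl1, Prelid2, A4gnt, Sh3gl3, Pramef12, Ak4, Sh3bgrl2, Nsg2, Aagab, Rhobtb1, Trim15, Sccpdh, Icmt, Asph and Hipk3. Of the 114 genes tested within 10 Mb of Esrp2, 2 were called lower (Esrp2 and 1810019D21Rik) and 1 higher (Nqo1), and of the 54 within 10 Mb of Esrp1, 1 was called lower (Asph).

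Functional programmes were then read list by list, against 0.441% called lower and 6.02% separated lower among all genes tested. For rises these shares were 0.594% and 4.8%. In average, 6155 of the 12465 genes were lower and 6310 higher. The lists with the lowest medians were those of epidermal T cell ligands, desmosomes, ceramide and barrier lipid enzymes and fatty acid activation and elongation. A member that passed the filter on low values only through the genotype in which it was high had to differ, so its direction was fixed by the filter, and the counts of such members are given beside the lists they enter. In bulk tissue, fewer cells of a type and less RNA per cell cannot be told apart.

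Skint genes encode butyrophilin-like membrane proteins of keratinocytes, some of which select the T cells of mouse epidermis. Of the 15 members tested in this list, 14 were lower in average, 8 were separated lower and 0 separated higher, and 3 were called lower (Skint5, Skint4 and H60c). The list had a median log2 fold change of -0.98, against 0.01 over all genes. Skint5 was at 2.36 and 0.363 FPKM in DKO and 15.6 and 21.6 in WT (log2 fold change -3.18, standard error 0.55, adjusted p = 0.0336 by limma). Skint4 was at 4.16 and 2.23 against 15.6 and 26.6 (log2 fold change -2.39, adjusted p = 0.0386). H60c, a ligand of the NKG2D receptor of T and NK cells, was at 32.2 and 27.7 against 89.1 and 129 (log2 fold change -1.81, adjusted p = 0.0479). As in every called gene, DKO and WT did not overlap in any of the 3. The KO and KH libraries, however, held 31.4 to 65.7 FPKM of H60c and reached the DKO level. Skint2 (6.18 and 1.57 against 29.1 and 39.8 FPKM) had a larger difference than Skint4 but a wider spread, and its adjusted p was 0.05104. Skint genes lie in a cluster, share sequence and overlap one another, so that reads may be split between them. When only DKO and WT were fitted, 7 members of the list were called lower.

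Desmosomes tie keratinocytes together through the cadherins desmoglein and desmocollin and the plaque proteins desmoplakin, plakoglobin, plakophilins and periplakin. Of 16 members tested, 14 were lower in average and 6 separated lower, 1 was separated higher, and none was called (median log2 fold change -0.74). The largest differences were in the cadherins of the suprabasal layers. Dsc1 was at 59.4 and 72.1 FPKM in DKO and 190.2 and 388 in WT (log2 fold change -2.04, adjusted p = 0.178 by limma), Dsg1b at 29.6 and 20.6 against 50.7 and 122, Dsg1a at 146 and 108 against 294 and 426 and Dsg1c at 1.37 and 0.779 against 2.94 and 4.27. The 3 Dsg1 genes are close paralogs, and Dsc1 and Dsg1a are also members of the spinous marker list described below. The KO and KH libraries overlapped DKO in all 4, from 71.7 to 295 FPKM for Dsc1, from 22.4 to 80.98 for Dsg1b, from 124 to 323 for Dsg1a and from 0.944 to 3.82 for Dsg1c. In the fit of DKO and WT alone 3 of the 16 were called lower.

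The ceramide and barrier lipid list had 29 members tested, with 21 lower in average, 7 separated lower, none separated higher and 1 called, Smpd1 (median log2 fold change -0.54). Smpd1 makes ceramide from sphingomyelin in lysosomes and at the lamellar granule. Abca12, the lipid transporter of lamellar granules, was at 21.4 and 15.4 FPKM in DKO and 53.5 and 69.7 in WT. Degs2, which makes phytoceramide, was at 6.76 and 3.65 against 13.04 and 16.5, and Acer1, the alkaline ceramidase of skin, at 78.3 and 48.95 against 147 and 163. The groups of these 3 did not overlap, but they were named by a rule that asked for this, so it is no added support. Their adjusted p was 0.221, 0.2997 and 0.216 by limma with all 9 libraries and 0.0116, 0.0342 and 0.0389 with only DKO and WT. The KO and KH libraries overlapped DKO in all 3, from 20.1 to 68.9 FPKM for Abca12, from 1.01 to 6.74 for Degs2 and from 55.9 to 135 for Acer1.

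Acyl-CoA synthetases load fatty acids onto coenzyme A, and elongases and desaturases lengthen and modify them. Of 28 members tested, 22 were lower in average, 6 were separated lower and 1 higher, and Elovl5 was called (median -0.48). Elovl5, an elongase of polyunsaturated fatty acids, was at 3.55 and 3.19 FPKM in DKO and 11.7 and 11.96 in WT (log2 fold change -1.55, standard error 0.18, adjusted p = 0.00331), with the KO and KH libraries between at 4.51 to 6.13. Acsl6 was at 1.48 and 0.397 against 9.63 and 5.01, Acsl4 at 7.37 and 4.602 against 14.2 and 20.8 and Acsl1 at 78.8 and 55.6 against 138 and 176, none of them called. Fatty acid oxidation and peroxisomal genes had smaller differences, with 32 of 43 lower in average, 0 separated lower, 1 separated higher and none called (median -0.25). The peroxisomal carrier Slc25a17 was called lower (33.9 and 33.9 against 76.9 and 85.4 FPKM, log2 fold change -1.23, adjusted p = 0.0349 by limma).

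Other lipid lists were divided. In cholesterol synthesis 13 of 24 genes were lower in average, with 1 separated in each direction and none called. In triglyceride synthesis and storage 3 of 28 were separated lower and 3 higher, none called, and 1 of each 3 passed the filter through 1 genotype only. Gpam, which starts glycerolipid synthesis, was at 3.04 and 3.38 FPKM in DKO against 8.67 and 16.1 in WT, whereas Fabp4, a fatty acid carrier, was at 87 and 29.99 against 6.66 and 17.8 and Cidea, a lipid droplet protein, at 11.4 and 4.95 against 1.32 and 2.004. Pparg, the nuclear receptor of lipid storage, was called higher at 1.86 and 2.26 against 0.285 and 0.263 FPKM (log2 fold change 1.26, adjusted p = 0.0436 by limma). Hpgd, which breaks down prostaglandins, was also called higher, at 17.7 and 37.8 against 2.92 and 2.69 FPKM (log2 fold change 2.83, adjusted p = 0.0163). The low value of Gpam and the high values of the other 4 genes did not overlap between DKO and WT, which held for every gene called or separated. The KO and KH libraries overlapped DKO in Fabp4, at 34.5 to 109.5 FPKM, and in Gpam, at 2.77 to 15.01.

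**Figure D3:**
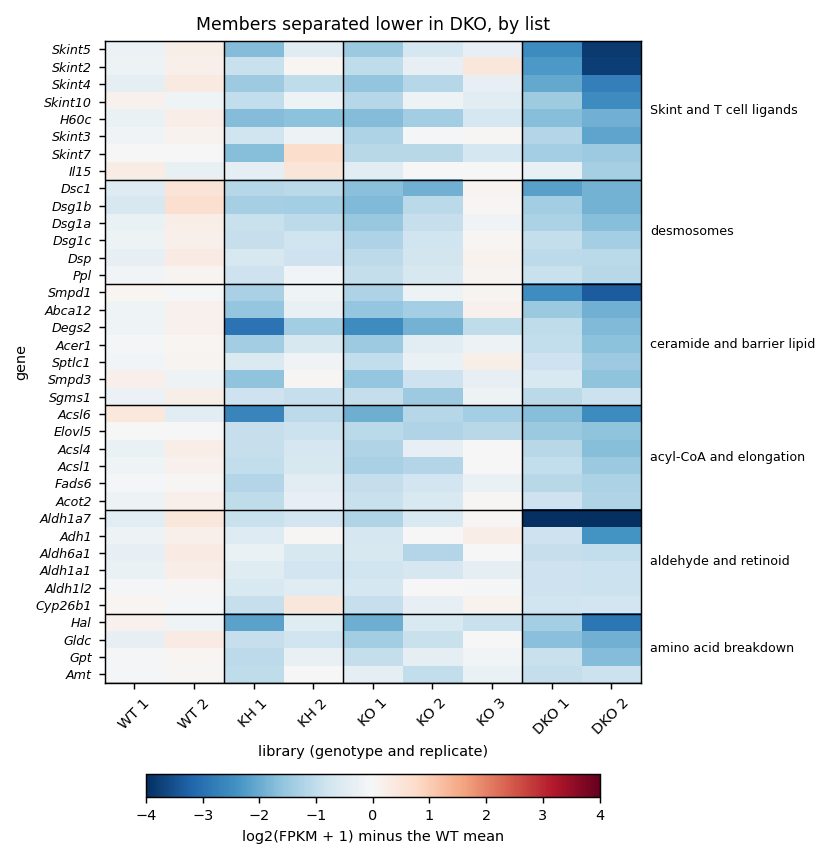
Members of 6 functional lists that were separated lower in DKO, in all 9 libraries, as log2(FPKM + 1) minus the mean of the 2 WT libraries. Colour runs from 4 below (dark blue) to 4 above (dark red) the WT mean; members were chosen because DKO was low, so the DKO columns describe the choice, and the KH and KO columns show how the same genes stood in the other genotypes.

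Among the 178 solute carriers tested, 3 were called lower and 2 higher, with 17 separated lower and 14 higher and a median of -0.06. Of these, 3 of the 17 passed the filter only through WT, Slc6a19 among them, and 9 of the 14 only through DKO, Slc5a8 among them. Slc38a4, a second carrier of neutral amino acids, was at 28.97 and 27.8 FPKM in DKO and 99.99 and 146 in WT (log2 fold change -2.05, standard error 0.37, adjusted p = 0.0384). In the opposite direction Slc5a8, a sodium-coupled carrier of lactate and short-chain fatty acids, was at 12.9 and 9.26 against 0.549 and 0.3496 (log2 fold change 3.05, standard error 0.22, adjusted p = 0.000264) and Slc16a5, a monocarboxylate transporter, at 9.52 and 9.24 against 1.24 and 1.07 (adjusted p = 0.00371). DKO and WT did not overlap in any of these carriers, as in every called gene. Among 39 ion channels and pumps 1 was called lower, Bsnd, and 1 higher, Scnn1g, a subunit of the epithelial sodium channel (8.22 and 6.62 against 2.27 and 1.85 FPKM, adjusted p = 0.0132). Bsnd passed the filter only through WT.

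Aldehyde, alcohol and retinoid enzymes were lower in average in 25 of 38, with 6 separated lower, 2 separated higher and Aldh1a7 called (median -0.27). Adh1, an alcohol dehydrogenase that also oxidises retinol, was at 180 and 61.05 FPKM in DKO and 279.8 and 369.9 in WT, while Aldh1a3, a retinoic acid synthase, was at 1.92 and 1.16 against 0.397 and 0.159 and Dhrs9 at 1.51 and 0.937 against 0.0313 and 0.0805, none of them called. Aldh1a3 and Dhrs9, the 2 separated higher, both passed the filter only through DKO, and 1 of the 6 separated lower only through WT. The glutathione, thioredoxin and NADPH list had no common direction, with 27 of 51 higher and 24 lower in average and a median of 0.07. In it 7 genes were separated higher and Sod3 was the 1 separated lower. Nqo1, a quinone reductase, was called higher at 5.18 and 5.64 against 1.88 and 1.64 FPKM (adjusted p = 0.0257 by limma), and Gpx2, a glutathione peroxidase, at 1.48 and 1.82 against 0.2504 and 0.145 (adjusted p = 0.04598). Gsta4, a glutathione transferase, was at 51.7 and 35.2 against 15.9 and 16.5 (adjusted p = 0.0641). Gpx2 passed the filter only through DKO and Sod3 only through WT.

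In amino acid breakdown 4 of 44 genes were separated lower and 1 higher. Hal, the histidine ammonia-lyase that makes the urocanic acid of the stratum corneum, was at 313 and 109 FPKM in DKO and 917 and 710.4 in WT (log2 fold change -2.12, adjusted p = 0.192 by limma and 0.0493 with only DKO and WT fitted). The DKO libraries stood far apart from each other in this gene, though both lay below WT, and the KO and KH libraries held 184 to 573 FPKM. Sat1, the rate-limiting enzyme of polyamine breakdown, was called higher at 135 and 147 against 43.9 and 52.7 FPKM (adjusted p = 0.04699). In haem and iron genes 5 of 30 were separated lower and 3 higher (median 0.0). Mgarp, described above by its part in mitochondrial transport, was the only called gene of this list. The other lower ones included Heph (3.33 and 2.602 against 7.46 and 7.93 FPKM), a ferroxidase, and Fech (10.9 and 9.65 against 20.8 and 26.2 FPKM), which inserts iron into haem. The higher ones included Ftl1, the ferritin light chain (218 and 213 against 116 and 83.1 FPKM). Of the separated genes 1 of the 5, Mgarp, passed only through WT and 1 of the 3 only through DKO.

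The serpins and proteases of the skin surface were mixed. Serpinb3a, a clade B serpin and one of the most abundant genes called lower, was at 130.4 and 75.6 FPKM in DKO and 365 and 454 in WT (log2 fold change -2.02, adjusted p = 0.0349 by limma), with the KO and KH libraries also below WT at 93.2 to 179. Its near-identical paralogs make the value uncertain. Of 16 clade B serpins 3 were separated lower, 1 of them passing the filter only through WT, and 1 higher. Tmprss11e, a membrane serine protease, was called lower at 0.0483 and 0.0686 against 1.29 and 1.41 FPKM, and Slpi and Spink12, inhibitors of serine proteases, were called higher. Over the whole list of kallikreins, proteases and inhibitors 3 of 40 were separated lower and 8 higher. Both called higher, Slpi and Spink12, and 5 of the 8 separated higher passed the filter only through DKO, and Tmprss11e only through WT.

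Junction, trafficking and signalling lists held few called genes. Clmp, an immunoglobulin-like adhesion molecule, was the 1 of 44 adherens and tight junction genes called lower (0.266 and 0.173 against 1.94 and 3.301 FPKM, adjusted p = 0.0209 by limma), and the KO and KH libraries were as low, at 0.0345 to 0.155. Clmp passed the filter only through WT. Rab40b was the 1 of 46 Rab genes called (2.22 and 2.11 against 6.21 and 9.82 FPKM, adjusted p = 0.0436). In the FGF list Fgf22 was called lower and Fgf1 and Fosl1 higher, the latter 2 passing the filter only through DKO. Fgf1, a fibroblast growth factor, was at 5.04 and 3.55 against 0.683 and 0.624 FPKM (log2 fold change 1.67, adjusted p = 0.0259). The Notch (24 tested), Wnt (45) and Hedgehog and ectodysplasin (17) lists held no called gene, and their medians were -0.18, 0.0 and 0.09.

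Circadian clock genes were lower in average in 18 of 19, at a median of -0.39, but only Rora was separated (22.8 and 10.6 against 37.5 and 39.97 FPKM) and none was called. Lysosome and autophagy genes had 1 of 52 separated in each direction, and endoplasmic reticulum chaperones 0 of 29. The heat shock list had 1 called gene, the small heat shock protein Cryab, which was higher (11.9 and 10.8 against 0.9802 and 0.642 FPKM, log2 fold change 2.78, adjusted p = 0.000264 by limma) and passed the filter only through DKO.

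Among 45 epidermal transcription factors 3 were separated lower, 5 higher and 1 called, Pparg. Pparg and no other of the 5 passed the filter only through DKO, and 1 of the 3 only through WT. Grhl1, a grainyhead-like factor that activates desmosomal cadherin genes, was at 43.05 and 41.6 FPKM in DKO and 132 and 118 in WT (log2 fold change -1.54, standard error 0.38, adjusted p = 0.118 by limma, and 0.00841 with only DKO and WT fitted). Ikzf4, a zinc finger protein of the Ikaros family, was at 0.1102 and 0.152 against 1.36 and 1.39 FPKM (adjusted p = 0.0529), and the KO and KH libraries were near DKO at 0.117 to 0.327. Grhl1 was also the only separated gene among the 18 with an Esrp-enhanced exon in the study's list of RT-PCR results. Timm17b was the only one of the 10 with an Esrp-silenced exon. That list does not hold every event the study tested by RT-PCR. By limma 0 of these 28 genes were called, and 1 of the 18 and 2 of the 10 had an unadjusted p below 0.05, against 15.3% of all genes tested. The study chose these genes for their splicing, so they are no independent sample of genes.

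The 10 granular and cornified markers were all lower in average, with a median of -0.43, but their sum overlapped between groups at 18700 and 9173 FPKM in DKO and 19910 and 18030 in WT. The 7 spinous markers summed to 37280 and 25920 FPKM in DKO and to 46070 and 61200 in WT, without overlap, and 3 of the 7 (Dsc1, Dsg1a and Krt10) were separated lower. Basal markers had a median of 0.33, and 1 of 7, Krt15, was separated, at 655 and 288 FPKM in DKO and 990.3 and 1109 in WT, the opposite side from the median of its list. None of the 24 markers was called. Whether the lipid, desmosome and Skint differences follow from these layer differences was not tested. DKO replicate 2 had the lower sum in both the spinous and the granular list. Hair follicle markers summed to 601.4 and 694.0 FPKM in DKO and to 518.7 and 439.1 in WT, with 4 of 11 separated higher. Which sums overlapped depended on the scaling between libraries. As a percent of each library's summed FPKM the granular and cornified markers took 1.68 and 1.19 in DKO and 2.22 and 2.08 in WT, without overlap, and the spinous markers 3.35 and 3.36 against 5.15 and 7.06, whereas the basal markers, at 0.577 and 0.959 against 0.59 and 0.617, and the hair follicle markers, at 0.0541 and 0.0899 against 0.0579 and 0.0506, overlapped.

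Of the 10 largest rises outside the structural families, 5 belonged to the antimicrobial and cytokine lists (Ccl20, S100a8, S100a9, Saa1 and Il33) and Slpi to the list of proteases and inhibitors. Slpi, an antimicrobial inhibitor of neutrophil elastase, was at 83.96 and 66.4 FPKM in DKO and 0.363 and 0.243 in WT (log2 fold change 5.86, standard error 0.25, adjusted p = 1.8e-05 by limma). Ccl20, the chemokine that draws Ccr6-bearing cells, was at 48.1 and 38.8 against 0.752 and 0.276 (log2 fold change 4.89, adjusted p = 3.3e-05). In both genes the KO and KH libraries stayed far below DKO, from 0.394 to 1.12 FPKM for Slpi and from 0.119 to 0.438 for Ccl20. Il33, an alarmin of the interleukin 1 family, was at 10.2 and 14.2 against 0.5698 and 0.569 FPKM (adjusted p = 0.00139), and Il1b at 6.99 and 4.73 against 0.495 and 0.203 (adjusted p = 0.00307). Of the 46 genes of the cytokine list 23 passed the filter on low values, 7 of them separated higher and 0 lower, and 3 were called higher (Ccl20, Il33 and Il1b). All 3, and 5 of the 7 separated, passed the filter only through DKO and so had to be higher there. The counts are given as a description.

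Of the 35 genes of the antimicrobial list 17 passed the filter, of which 9 were separated higher, 2 lower, 6 called higher and Ear5 called lower. Again 4 of the 6 called passed only through DKO, so that neither these counts nor the median of 0.80 speak for the list. S100a8 and S100a9, which pair as calprotectin, were at 15.3 and 15.2 and 40.5 and 36.9 FPKM in DKO, in that order, against 1.29 and 0.178 and 4.21 and 2.24 in WT. Saa1, an acute-phase protein, was at 28.8 and 11.6 against 1.105 and 0.961, and Lpo, a peroxidase of secretions, at 6.96 and 5.36 against 0.0583 and 0.0669. The beta-defensins Defb3 (2.53 and 3.12 FPKM) and Defb6 (2.51 and 1.66 FPKM) were listed at 0 in both WT libraries. These 6 genes were called higher, at adjusted p from 0.000565 to 0.0118 by limma. The remaining genes of the 10 largest rises were Rptn, a fused S100 protein of the cornified envelope (321 and 288 against 13.4 and 14.8 FPKM), the protease inhibitor Spink7 (8.54 and 13.8 against 0 and 0.248) and a pair of small nucleolar RNAs, SNORA42 (chr5:121205010-121205143, mm10), at 11.7 and 7.25 FPKM in DKO, and Snora7a, at 7.91 and 10.1. Both RNAs were listed at 0 in all 7 other libraries and are far shorter than the transcripts a poly(A) library samples well.

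Another 27 named genes called higher belonged to no list, with log2 fold changes from 1.31 to 2.83, and those given here were chosen after their values were seen. Several sit beside the structural families in the epidermal differentiation complex: Crnn, or cornulin, was at 34.8 and 20.6 FPKM in DKO and 2.36 and 3.57 in WT (log2 fold change 2.83, adjusted p = 0.015), Prr9 at 8.68 and 5.17 against 0.507 and 0.331, Tchhl1 at 6.59 and 3.19 against 0.119 and 0.0682 and S100a6 at 105 and 109 against 23.2 and 18.1. Secreted signals were among them too, with Epgn, a ligand of the EGF receptor, at 5.42 and 12.4 against 0.949 and 0.698 FPKM, Sema3g, a semaphorin, at 5.95 and 4.11 against 0.301 and 0.206, and Npy, a neuropeptide, at 12.8 and 17.7 against 3.397 and 2.94. Tpm2, a tropomyosin of the actin list, was called at 56.7 and 49.2 against 7.52 and 10.2 FPKM (log2 fold change 2.46, adjusted p = 0.00236 by limma). None of these overlapped between DKO and WT, which held for every called gene. The structural families themselves held 5 of 25 keratins, 7 of 13 Sprr and 6 of 21 Lce genes called higher and none called lower. Krt77, a type II keratin, lay on the other side at 22.6 and 5.36 FPKM in DKO and 59.9 and 81.8 in WT (log2 fold change -2.53, adjusted p = 0.16), 1 of 5 keratins separated lower.

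**Figure D4:**
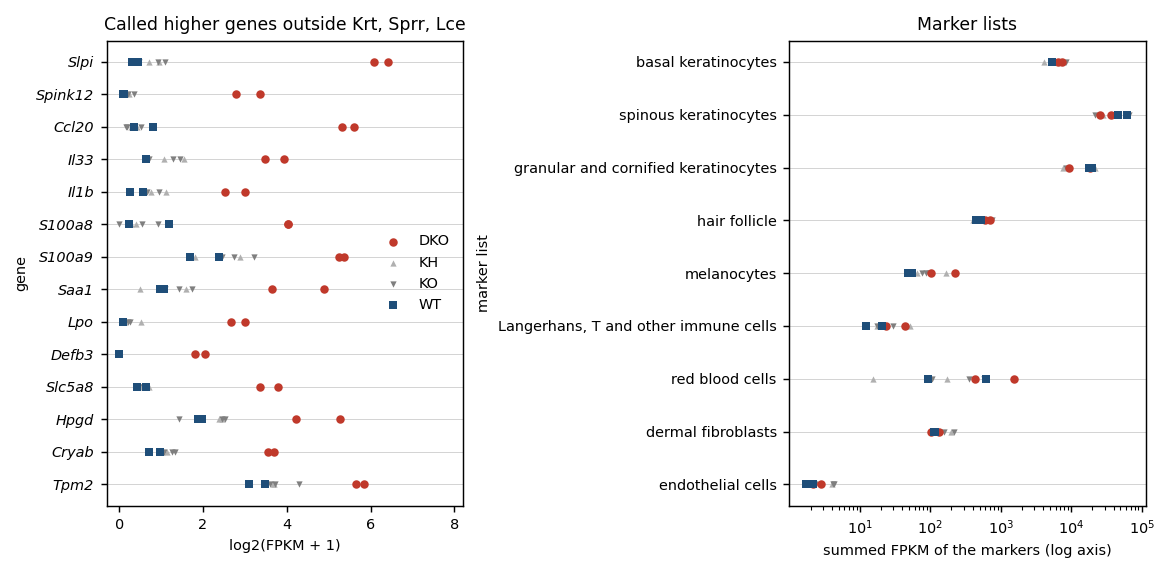
Left, 14 genes called higher in DKO outside the structural families, as log2(FPKM + 1) in each library: both DKO circles (red) lie to the right of all KH, KO (grey) and WT (blue) points. Right, the summed FPKM of 9 marker lists in each library on a log axis, in which DKO lies above WT without overlap for basal keratinocytes, hair follicle, melanocytes and immune cells and below WT for spinous keratinocytes; as a percent of each library's summed FPKM the basal and hair follicle sums overlap and the granular sum lies below WT.

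Interferon-stimulated genes (6 of 22 separated higher, median 0.40) and MHC and antigen presentation genes (5 of 18 separated higher, 1 lower, median 0.47) held no called gene, and 4 of the separated higher genes in each list passed the filter only through DKO. The class II genes stood highest, with Cd74 at 16.8 and 6.97 FPKM in DKO and 4.08 and 1.31 in WT and H2-Aa at 6.22 and 1.58 against 0.634 and 0.258. These are genes of Langerhans and other antigen-presenting cells and belong to the list of 9 immune markers, which summed to 44.2 and 23.6 FPKM in DKO against 20.4 and 12.1 in WT. Without Cd74 and H2-Aa the other 7 summed to 21.2 and 15.1 FPKM in DKO and 15.7 and 10.6 in WT and overlapped. This overlap depends on the scaling between libraries, whose FPKM summed to 1112137 and 771857 in DKO and 895103 and 867380 in WT. It does not place the immune difference in the class II genes alone. The T cell marker Cd3e of this list was below 1 FPKM in all 4 libraries, the Langerhans marker Cd207 was at most 0.0288, and the pan-leukocyte marker Ptprc was at 1.74 and 1.07 in DKO and 1.97 and 1.06 in WT. All 8 melanocyte markers lay above WT in both DKO libraries (28.1% of all genes tested did) and 7 were separated, with sums of 102.5 and 224.3 FPKM against 54.4 and 48.4. The sums of the KO and KH libraries, 64.06 to 165.4 FPKM, also lay above WT and overlapped DKO. Dct, an enzyme of melanin synthesis, was at 46.03 and 99.05 against 22.5 and 21.4 FPKM, and none of the 8 was called. Red blood cell markers ranged from 431.5 and 1520 FPKM in DKO to 624.1 and 92.98 in WT and overlapped. The part of these cells in other results was not tested.

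Cell cycle and DNA replication genes were higher in average in 53 of 57, at a median of 0.57, with 5 separated higher, 0 lower and none called. E2f2 had the largest difference, at 20.3 and 18.1 FPKM in DKO and 9.17 and 6.26 in WT (adjusted p = 0.0731 by limma), followed by Cenpf at 10.5 and 9.61 against 5.802 and 3.05. Integrin, hemidesmosome and basement membrane genes were higher in average in 24 of 30, at a median of 0.33, with 1 separated. This median changed sign under some alternative processing, so its direction is uncertain.

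Housekeeping lists were shifted to a smaller extent. Of 83 cytosolic ribosomal protein genes 72 were higher in average (median 0.32), of 76 mitochondrial ribosomal genes 68 (median 0.28) and of 78 nuclear genes of the respiratory chain 71 (median 0.36). In these 3 lists 4 genes were separated higher, 1 of them passing the filter only through DKO, none lower, and none was called. After a correction of each library for transcript length, the medians were 0.23, 0.24 and 0.28. Glycolytic genes were lower in average in 15 of 20 (median -0.23, 1 separated in each direction), and 277 Zfp genes had a median of -0.10, which went to -0.02 with the length correction. The same correction left the medians of the Skint (-0.97), desmosome (-0.64), ceramide (-0.42) and acyl-CoA (-0.48) lists well below that of all genes (0.03), and that of the cell cycle list (0.58) above it. In the acyl-CoA list 2 of the 6 genes separated lower passed the filter only through WT, and in the Skint, desmosome and ceramide lists none did.

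**Figure D5:**
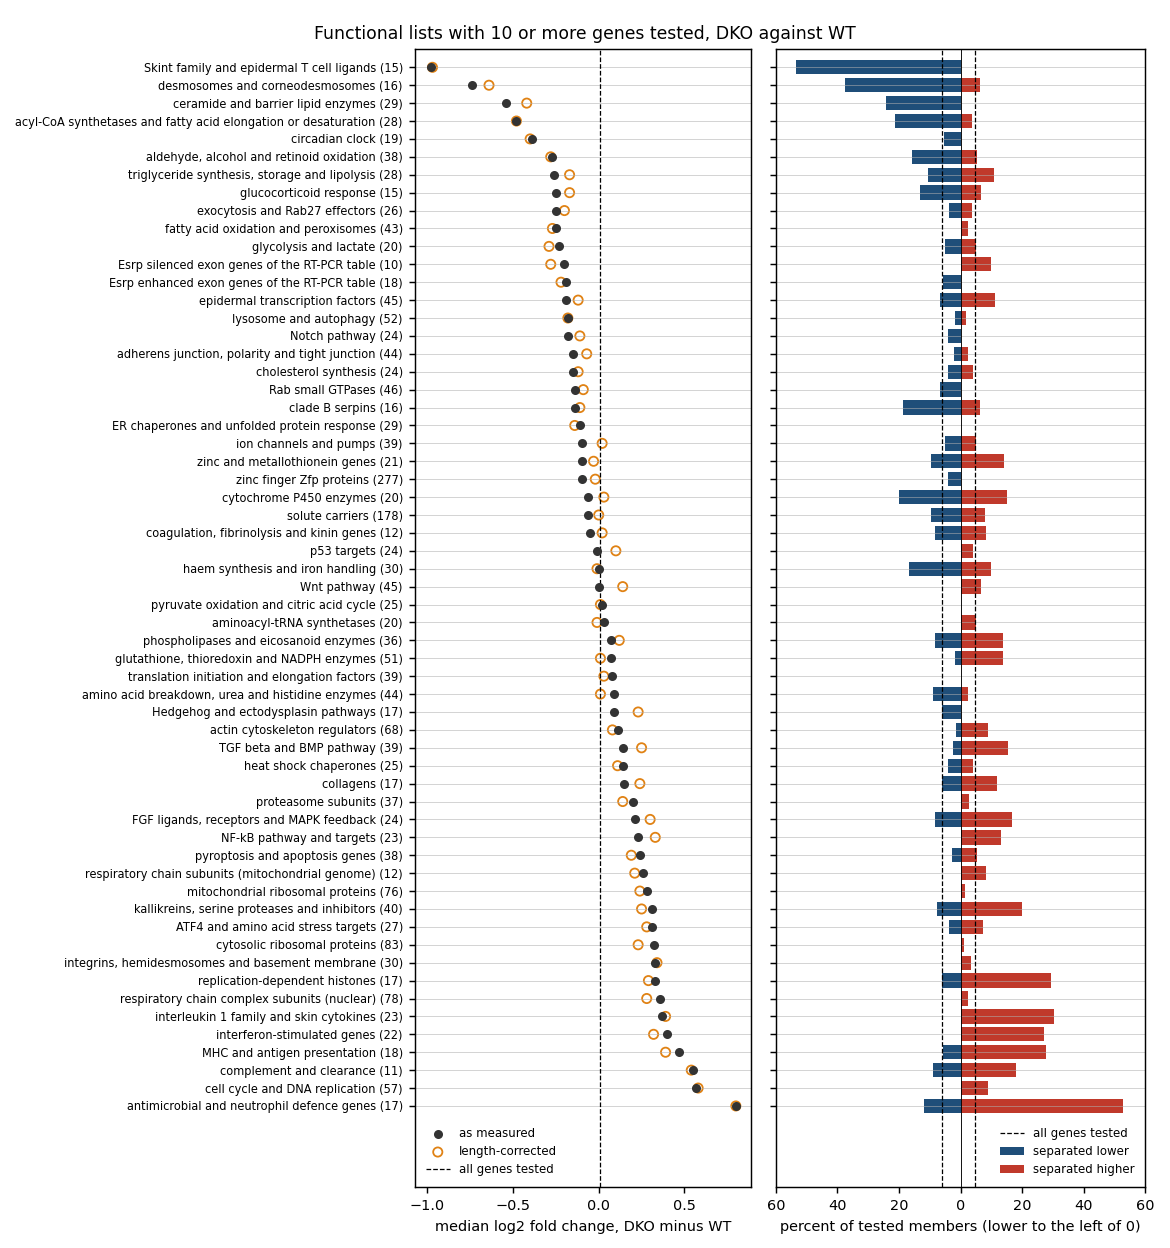
Functional lists with 10 or more genes tested (number in brackets), ordered by median. Left, the median log2 fold change as measured (black) and after correction for transcript length (open orange); right, the percent of members separated lower (blue, to the left) and higher (red, to the right). Dashed lines give the values over all 12465 genes: a median of 0.01 and separated shares of 6.02% lower and 4.8% higher.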

How the data were processed

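RNA from the epidermis of single E18.5 embryo skins was sequenced as stranded poly(A) libraries on a HiSeq 2000, 9 libraries of 4 genotypes. The values are FPKM per gene as deposited: the authors mapped reads to mm10 with TopHat 1.4.1 and computed FPKM with Cuffdiff 2.2.0 on Ensembl 72 genes. The scaling between libraries is not given in the sources used here. No read counts were used, and 0 per-library columns were left out.

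Genes with an average FPKM of at least 1 in DKO or WT were tested on log2(FPKM + 1) with limma 3.58.1 (R 4.3.3; 4 genotype means, intensity trend, two-sided, Benjamini-Hochberg over 12465 genes, 5 residual degrees of freedom). With 1 added before the logarithm, differences of weakly expressed genes come out too small. Each embryo counts as 1 replicate. For 1 gene alone an exact permutation of 2 libraries against 2 cannot give p below 0.333. Separation (no overlap and more than 2-fold in average FPKM) is a description, without a test. Length correction was a loess fit (span 0.5) on transcript length per library. Alternatives changed the libraries fitted, weights, pseudocount, filter, scaling, trend and fold threshold.

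The members and the 60 functional lists were chosen with earlier results of these data known. Named genes are Esrp1 and Esrp2, the 20 largest called falls and 10 largest called rises outside the keratin, Sprr and Lce families and predicted genes, called list members, up to 4 separated members with the largest change per list, the genes of the study's RT-PCR panel, Krt77, Grhl1, Skint4 and the cell type markers. Gene positions came from GENCODE M21 (95.1% of genes matched) and promoters from RefSeq. The fitting was tested on simulated data.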

Additional observations from a re-analysis of the deposited data

How the results depend on the processing

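Against 55 genes called lower in DKO and 74 genes called higher in DKO, fitting only DKO and WT gave 405 and 219, the same with the length correction (chosen after seeing the data) 352 and 210, and limma array weights 401 and 256. Without a filter 24 were called lower, and with FPKM rescaled to a common sum 121. Leaving out each library in turn gave 8 to 105 lower and 30 to 95 higher. Of the lower genes 7 were called without any single library (Aldh1a7, Bsnd, Esrp2, Gadl1, Gm9000, Mgarp and Slc6a19), and 6 under every alternative run, those without Bsnd. Of the 56 named genes that were called, 37 lost the call under at least 1 of 24 alternatives, and 0 changed direction. Of 127 named genes not called, 88 were called under at least 1, and 0 changed direction. Of the 60 list medians 23 changed sign under some alternative, so the direction of the lists with small medians is not stable. Of the 17 lists with a median of at least 0.3 in size, 3 changed sign: integrins and hemidesmosomes, skin cytokines, and kallikreins and serine proteases. A fit with the replicate number as a block called 42 lower and 52 higher, of which 29 and 51 were also called without it. Deviations of libraries with the same number correlated from -0.61 to 0.515 (0.133 between DKO and WT, 1 value since groups of 2 mirror each other), so the number was not taken to pair the libraries, and whether it marks a shared litter or day was not tested. With 2 libraries a group and no counts, differences of low genes are the least certain.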
